A study of Mus musculus with 6 samples.

Results

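The collagen genes of the mouse are described here in spleens of Was knockout and wild-type mice. The members are all genes of the deposited expression table whose symbol is Col, a number, the letter a and a number, and that had a value above 0 in at least 1 library. All 40 such genes of 26452 in the table met both conditions. No measured difference was used to choose them. The mice were 10-week-old males. The knockout group carries the targeted allele Was -/- (129S6/SvEvTac-Wastm1Sbs/J) and the wild-type group is of the 129S6/SvEvTac strain. Each group has 3 libraries, named KO451, KO452 and KO457 or WT453, WT454 and WT455, and total RNA of the spleen was sequenced with no treatment named in the labels. The allele is present in every cell of the animal rather than in a chosen cell type. The labels do not say more than the titles about whether libraries came from separate animals, so p-values here cover library-to-library spread, which may be technical.

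Collagens are secreted or membrane-bound proteins in which 3 chains wind around each other, and each chain is the product of its own gene. Fibrillar collagens form the ropes of connective tissue, collagen IV forms the sheet of the basement membrane, and collagen VI forms fine beaded filaments. In the spleen, reticular fibroblasts lay down fibres that carry the white and red pulp, and further collagen is found in the capsule, the trabeculae and the vessel walls. Was encodes an actin regulator of blood cells. Cells that make fibrillar collagen are mainly connective tissue cells, so whole-spleen RNA holds both kinds.

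Between 30661759 and 38402758 reads were assigned to genes per library. Levels of read sums are given per 1000000 assigned reads (CPM). A gene with no reads in a library could still be present at up to 3 reads, or 0.0781 to 0.0978 CPM. Such limits and all intervals given here cover counting error only. Levels are given as normalized counts, which are reads scaled by a factor for each library. Was itself had 407 to 508 normalized counts in the knockout and 4142 to 6561 in the wild-type libraries, in the direction its labels call for (limma, Benjamini-Hochberg adjusted p = 0.0117). The library WT453 stood apart from the other 5. It was the highest library and at least 4-fold above the next, on the scale of the normalized count + 1, in 3.04% of 22071 genes tested, against 0.186% to 0.652% for the other libraries. It was also the highest library in 31.7% of the genes tested. Fold changes of the collagen genes described in full are therefore given with and without it where its absence changed them.

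The name of a stromal gene set was checked against marker genes. The summed level of 12 markers of reticular fibroblasts was 2.79 to 5.86 CPM in 5 libraries and 14.5 CPM in WT453. Ccl19, a chemokine of the white pulp stroma, had no reads in WT453, KO451 and KO457 and 4.08 to 11 normalized counts in the other 3. Cxcl13, the chemokine of follicle stroma, had 4.29 to 41.6 normalized counts in 5 libraries and none in WT453. Pecam1, an endothelial gene, had 2885 to 6048 normalized counts. Stab2, a receptor of sinus endothelium, had 610.2 in WT453 and 1473 to 3582 in the others. Pdgfrb and Cxcl12, which other stromal cells also express, were higher, at 26.1 to 119 and 15.5 to 259.7. The 2 markers of white pulp stroma thus had few or no reads while Pdgfrb and Cxcl12 were read in every library. Each other gene of the list of 12 had no reads in at least 1 library. Among them were Pdgfra in WT454, Pdpn in KO451, KO452 and WT454, Fap in KO457 and Nkx2-3 in WT455. The 40 genes are called collagen genes here, with no claim about the cells they came from. In RNA of whole tissue, fewer cells of a type and less RNA per cell cannot be told apart.

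Promoter sequences are shown for 4 members whose levels differed in kind. Col3a1 and Col8a1 were high in WT453 and low or absent elsewhere, while Col5a1 and Col5a3 had reads in every library and higher mean levels in knockout spleens. Each sequence is the 150 bases before the annotated start of the gene, 5′ to 3′ on the strand of the gene, from RefSeq on GRCm38.p6. Col3a1 lies on the plus strand at chr1:45311388-45311537, Col8a1 on the minus strand at chr16:57754738-57754887, Col5a1 on the plus strand at chr2:27886275-27886424 and Col5a3 on the minus strand at chr9:20815068-20815217. Capitals mark 3 motifs on either strand. The CCAAT box was searched by the letters of its name. The TATA box was searched as TATAAA. The motif called a GC box was searched as GGGCGG.
Col3a1: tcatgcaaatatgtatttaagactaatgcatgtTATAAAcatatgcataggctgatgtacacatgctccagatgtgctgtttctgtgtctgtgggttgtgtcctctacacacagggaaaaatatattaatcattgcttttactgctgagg
Col8a1: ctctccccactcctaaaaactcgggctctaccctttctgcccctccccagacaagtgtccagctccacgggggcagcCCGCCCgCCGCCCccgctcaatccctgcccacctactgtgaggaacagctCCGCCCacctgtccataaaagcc
Col5a1: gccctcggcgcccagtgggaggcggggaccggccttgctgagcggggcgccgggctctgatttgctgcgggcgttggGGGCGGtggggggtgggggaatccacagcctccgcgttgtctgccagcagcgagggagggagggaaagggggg
Col5a3: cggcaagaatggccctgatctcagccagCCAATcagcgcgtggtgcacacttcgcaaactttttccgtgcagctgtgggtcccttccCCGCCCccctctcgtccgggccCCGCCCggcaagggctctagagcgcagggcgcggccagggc

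The Col3a1 stretch had a GC content of 37.3% and held 1 TATA box, which starts 117 bases before the gene, and no GC box. The other 3 had a GC content of 64.7% to 74.7%, with 3 GC boxes in Col8a1, 1 in Col5a1 and 2 in Col5a3. The CCAAT box of Col5a3 starts 122 bases before the gene. No 2 of the marked motifs overlap. RefSeq windows of 300 bases, from 250 before to 50 after the start, were found for 32 of the 40 members. A CCAAT box was present in 12 of the 32, against 41.1% of all 27025 genes with a window. A TATA box was present in 5 of the 32, against 15.7%, and a GC box in 21 of the 32, against 38.2%.

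Collagen transcripts were rare in 5 of the 6 libraries. The 40 genes summed to 70.3 CPM in WT454 (95% Wilson interval 67.7 to 73.0), 71.4 CPM in WT455 (68.5 to 74.4), 63.5 CPM in KO451 (60.9 to 66.2), 77.3 CPM in KO452 (74.4 to 80.3) and 80.6 CPM in KO457 (77.7 to 83.7). WT453 stood at 262 CPM (257 to 268). The knockout mean was 73.8 ± 9.08 CPM (SD, n = 3) and the wild-type mean 135 ± 111 CPM (SD, n = 3), so the wild-type spread is larger than the difference of the means. The ratio of knockout to wild-type mean was 0.548 with all libraries and 1.04 without WT453. The summed reads by class show that the excess of WT453 lies mainly in fibrillar collagens, at 213 CPM against 17.9 to 46.1 CPM in the other 5.

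**Figure D1:**
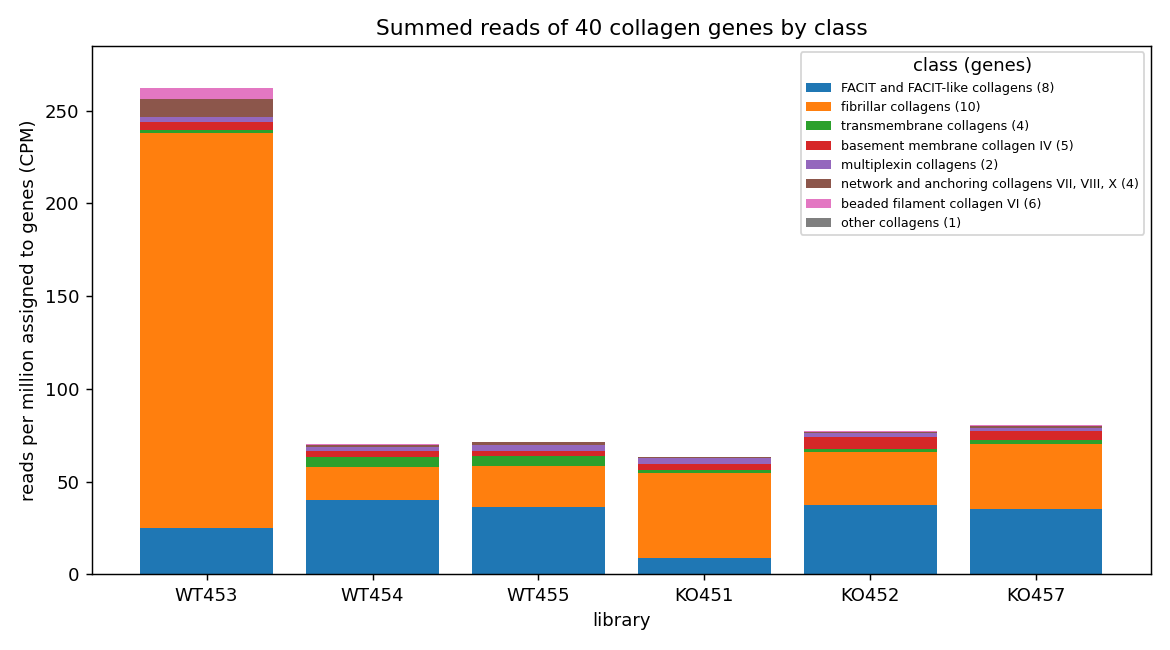
Reads of the 40 collagen genes per 1000000 reads assigned to genes (CPM), summed by collagen class, for each of the 6 libraries; each colour is a class, with its number of genes in the key. WT453 reaches 262 CPM, of which 213 are fibrillar, while the other 5 libraries lie between 63.5 and 80.6 CPM.

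Not all fibrillar chains took part in that excess. In WT454, WT455, KO452 and KO457 the collagen gene with the highest normalized count was Col14a1, which is not fibrillar, and in KO451 it was Col5a1. Per kilobase of its longest coding transcript, Col14a1 had the highest mean over the 6 libraries, at 146 normalized counts per kilobase. It was followed by Col1a1 at 74.3, Col5a1 at 70.5, Col3a1 at 54.6, Col11a2 at 53.2 and Col1a2 at 36.6. Without WT453 the order was Col14a1 at 158, Col5a1 at 66.7 and Col11a2 at 45.8, and Col1a1, Col1a2 and Col3a1 dropped to 4.24, 3.60 and 2.21 normalized counts per kilobase. Col14a1, Col5a1 and Col11a2 together took 72.5% to 78.7% of collagen reads in 5 libraries and 21.6% in WT453. In CPM the sum of these 3 genes was alike in all libraries, from 49.96 in KO451 to 60.6 in KO457, with 56.7 in WT453.

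Col14a1 encodes a collagen that binds to the surface of fibrils (a FACIT collagen) and lies on chromosome 15 at 55307750 to 55520803 in GRCm38 (ENSMUSG00000022371). Its normalized counts were 582.3 in WT453, 1216 in WT454, 1095 in WT455, 308 in KO451, 1230.0 in KO452 and 1238 in KO457. Each group thus held 1 library well below its other 2, and the groups overlapped. The log2 fold change, knockout minus wild type, was -0.24 ± 0.58 (SE, limma, adjusted p = 0.915), -0.57 without WT453 and 0.43 without KO451. The summed level of 5 red cell markers was highest in KO451, at 6493 CPM, and lowest in WT453, at 160 CPM. That of 5 B cell markers was lowest in KO451, at 1134 CPM, with 1243 CPM in WT453 and up to 4040 CPM in the other libraries. The part of either list in the result was not tested.

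Col5a1 encodes the alpha 1 chain of collagen V, which sits inside the fibrils of collagen I and sets their width (chromosome 2, 27886425 to 28039514, ENSMUSG00000026837). Its normalized counts were 1257 in KO451, 389 in KO452 and 723 in KO457, against 756 in WT453, 172 in WT454 and 261 in WT455. All 3 knockout values lay above those of WT454 and WT455, and WT453 lay within the knockout range. The log2 fold change was 1.12 ± 0.63 (SE, limma, adjusted p = 0.535) and 1.73 ± 0.50 (adjusted p = 0.193) without WT453. Leaving out KO451 gave 0.71 and leaving out WT454 gave 0.67. Col5a1 shares 113 exon bases with Gm13372 and fewer with 2810430I11Rik, both on the other strand, and without a stated strand setting reads there cannot be assigned.

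Col11a2, the alpha 2 chain of the minor fibrillar collagen XI, had 229 to 333 normalized counts in 5 libraries and 547 in WT453. Its log2 fold change was -0.22 ± 0.37 (SE, limma, adjusted p = 0.859), and 0.13 without WT453. Its partner chain Col11a1 had 47 reads in WT453 and 0 in the other 5 libraries. Col2a1, the main collagen of cartilage, had 3 reads in WT454 and 0 elsewhere. Reads of Col11a2 thus outnumbered those of both related chains in every library.

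**Figure D2:**
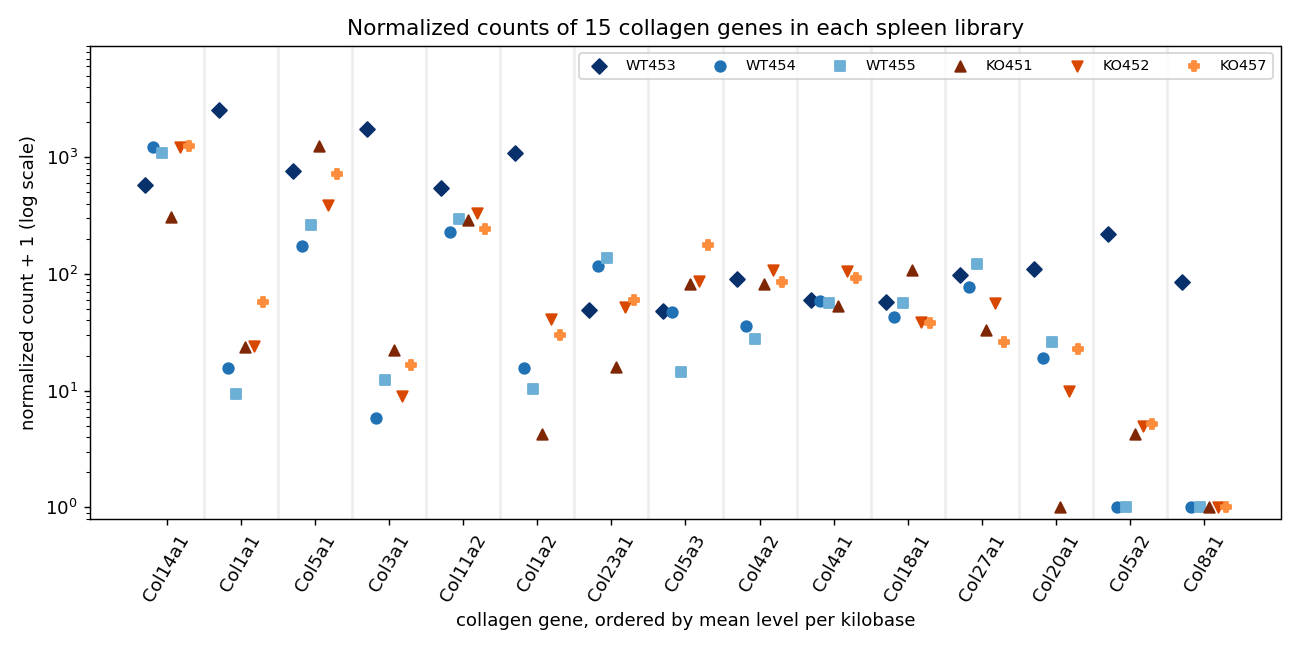
Normalized count + 1, on a log axis, of 15 collagen genes in each of the 6 libraries; each point is 1 library, blue for wild type and brown to orange for knockout, and genes are ordered by mean level per kilobase. WT453 (diamonds) lies apart at the top for Col1a1, Col3a1, Col1a2, Col5a2 and Col8a1 and within the range of the other libraries for Col14a1, Col5a1 and Col4a1.

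The chains of collagens I and III, the main fibre proteins of connective tissue, were read at high level in WT453 only. Col1a1 (chromosome 11, 94936224 to 94953042, ENSMUSG00000001506) had 2519 normalized counts in WT453. It had 14.7 in WT454, 8.31 in WT455, 22.5 in KO451, 23.0 in KO452 and 57.1 in KO457. Its partner chain Col1a2 (chromosome 6, 4504814 to 4541544) had 1079 in WT453, 14.7 in WT454, 9.35 in WT455, 3.22 in KO451, 40 in KO452 and 29.1 in KO457. WT453 was 43.3-fold above the next library for Col1a1 and 26.3-fold for Col1a2, on the scale of the normalized count + 1.

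Col3a1 (chromosome 1, 45311538 to 45349706), the collagen of reticular fibres, had 1762 normalized counts in WT453, 4.89 in WT454, 11.4 in WT455, 21.4 in KO451, 8 in KO452 and 15.6 in KO457, a 78.6-fold gap to the next library. Col5a2 (chromosome 1, 45374321 to 45503282), its neighbour on the other strand and a chain of collagen V, had 217 in WT453, 0 in WT454 and WT455, 3.22 in KO451, 4 in KO452 and 4.16 in KO457. These 4 genes took 64.0% of collagen reads in WT453 (95% Wilson interval 63.0 to 65.0) and 1.28% to 3.61% in the other libraries.

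The proportions of partner chains could be read in WT453. Collagen I is made of 2 alpha 1 chains and 1 alpha 2 chain, and the transcript ratio of Col1a1 to Col1a2 per kilobase was 2.11 in WT453 (95% exact interval 1.96 to 2.27). It was 1.77 in KO457 (1.10 to 2.90), 0.519 in KO452 (0.296 to 0.887), 0.902 in WT454 (0.443 to 1.84) and 0.802 in WT455 (0.269 to 2.34), where it rests on 8 to 55 reads per gene. KO451 had 21 reads of Col1a1 and 3 of Col1a2, too few for a ratio. The ratio of Col5a1 to Col5a2 was 2.74 in WT453 (2.35 to 3.21), whereas WT454 and WT455 had 211 and 251 reads of Col5a1 and none of Col5a2. In KO457 and KO452 that ratio was 137 (53.3 to 505) and 76.6 (29.7 to 283). Col5a1 transcripts outside WT453 thus came with almost no Col5a2 transcripts.

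The gap of WT453 extended to other classes. It was the highest library and at least 4-fold above the next in 13 of 37 collagen genes tested, where 3.04% of all genes were. KO457 was so in 1 member, Col22a1, where 0.331% of all genes were. The counts for KO451, KO452, WT454 and WT455 were 0 of 37, where 0.652%, 0.186%, 0.195% and 0.227% of all genes were. Beside Col1a1, Col1a2, Col3a1 and Col5a2, the 13 were Col7a1, Col20a1, Col16a1, Col6a1, Col6a2, Col6a3, Col8a1, Col11a1 and Col12a1. The whole set was found from the values of these libraries and is a description of WT453, not of the wild-type group.

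Among the 13 were the 3 chains that assemble into collagen VI, a filament around cells. Col6a1 had 54.6 normalized counts in WT453 and 0 to 5.19 in the others. Col6a2 had 78.3 and 0 to 5.19, and Col6a3 had 55.7 and 0 to 7.27. The alternative chains Col6a4, Col6a5 and Col6a6 had at most 7.21 in any library. Col12a1 and Col16a1, which bind to fibrils, had 56.7 and 38.1 in WT453 and at most 4.16 elsewhere. Col7a1, the anchoring fibril collagen of skin, had 211 in WT453 and 10 to 21.8 elsewhere.

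Col8a1 encodes a short-chain collagen of vessel walls (chromosome 16, 57624258 to 57754737, ENSMUSG00000068196). It had 82 reads in WT453 and 0 reads in WT454, WT455, KO451, KO452 and KO457. The authors' deposited table lists it with an FDR of 2.96e-05. It is the 1 collagen gene of 40 under 0.05 in that column, where 3.58% of all genes are. In limma the adjusted p was 0.678. Without WT453 no reads remain in either group. Its partner Col8a2 was read in all 6 libraries, at 10.7 to 19.0 normalized counts in knockout and 16.5 to 32.2 in wild-type spleens.

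Knockout and wild-type spleens were compared gene by gene with limma. Of 37 members with a mean of at least 1 normalized count, 0 passed an adjusted p of 0.05, where 0.00906% of all genes did, and the smallest adjusted p was 0.356. At an unadjusted p under 0.05 there were 2 of 37, where 11.0% of all genes were. The 2 were Col5a3, higher in knockout, and Col27a1, lower in knockout. They were also the members whose groups did not overlap, 1 of 37 in each direction, where 9.54% of all genes were higher and 9.94% lower without overlap. Log2 fold changes were below 0 in 27 members, where 52.3% of all genes were, and above 0 in 10. Their median was -0.70 against -0.03 over all genes tested. Without WT453, 16 of 31 members were below 0, where 51.3% of all genes were, and 15 above. The median was then -0.16 against -0.02 over all genes.

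Markers of blood cells differed between the same groups. The 5 red cell markers tested summed to 1485 to 6493 CPM in knockout and 160 to 690 CPM in wild-type spleens. Their median log2 fold change was 3.11, and 2.63 without WT453. By limma 5 of 5 were higher at an unadjusted p under 0.05, where 5.50% of all genes were, and 0 passed after adjustment. Red pulp macrophage markers summed to 3638 to 6292 CPM in knockout and 1042 to 3644 CPM in wild-type spleens. Of these 6 markers 3 were higher at an unadjusted limma p under 0.05, and 2 without WT453, where 9.70% of all genes were. B cell and T cell markers overlapped between groups, with median log2 fold changes of -0.53 and -0.50, and of -1.11 and -0.95 without WT453. At the same threshold 1 of 5 B cell and 0 of 5 T cell markers were lower, where 5.46% of all genes were. Without WT453 these were 5 and 4 of 5, where 9.53% of all genes were. In both settings 0 of them passed after adjustment. What part these lists have in the collagen comparisons was not tested.

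Col5a3 encodes the alpha 3 chain of collagen V (chromosome 9, 20770050 to 20815067, ENSMUSG00000004098). Its normalized counts were 81.5 in KO451, 86.0 in KO452 and 177 in KO457, against 47.4 in WT453, 46.5 in WT454 and 13.5 in WT455. Every knockout value lay above every wild-type value. The log2 fold change was 1.75 ± 0.61 (SE, limma, unadjusted p = 0.0224, adjusted p = 0.385), and 2.05 ± 0.63 without WT453 (adjusted p = 0.194). The unadjusted p was 0.0605 without WT455 and 0.0861 without KO457. The authors' deposited table gives an FDR of 0.0675.

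Col27a1 encodes a fibrillar collagen best known from cartilage (chromosome 4, 63214004 to 63334991, ENSMUSG00000045672). Its normalized counts were 32.2 in KO451, 56.0 in KO452 and 24.9 in KO457, against 96.9 in WT453, 76.7 in WT454 and 122 in WT455. Every knockout value lay below every wild-type value, and WT453 did not stand apart. The log2 fold change was -1.42 ± 0.44 (SE, limma, unadjusted p = 0.0145, adjusted p = 0.356), and between -1.74 and -1.17 when each library was left out. The unadjusted limma p was 0.0600 without WT455 and 0.0514 without KO457. The authors' deposited table gives an FDR of 0.0533.

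Col23a1, a transmembrane collagen (chromosome 11, 51289920 to 51583918), had 15.01, 51 and 59.2 normalized counts in KO451, KO452 and KO457. It had 48.4 in WT453, 117 in WT454 and 135 in WT455. Only WT453 of the wild-type libraries lay within the knockout range. The log2 fold change was -1.33 ± 0.66 (SE, limma, adjusted p = 0.506), and -1.78 ± 0.63 (adjusted p = 0.219) without WT453. Without KO451 it was -0.73. The summed level of 5 B cell markers was 1243 CPM in WT453 and up to 4040 CPM in the other wild-type libraries, against 1134 to 2426 CPM in knockout spleens. The part of that list in the result was not tested.

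Leaving out WT453 moved several members together. The log2 fold change went from below to above 0 in 7 members, among them Col1a1 (-1.16 to 1.41), Col3a1 (-1.76 to 0.81), Col1a2 (-1.69 to 0.44) and Col5a2 (-0.34 to 2.25). In the 5 remaining libraries 0 of 31 members passed an adjusted p of 0.05 (limma), where 0.00923% of all genes did, and the smallest adjusted p was 0.190. At an unadjusted p under 0.05 there were 6 of 31, where 19.2% of all genes were. Of these 4 were higher in knockout, where 9.70% of all genes were, namely Col4a2, Col5a1, Col5a2 and Col5a3. The lower 2 were Col23a1 and Col27a1. All 3 chains of collagen V were among the higher members of this comparison, but Col5a2 rests on 3 to 4 reads in each knockout library. The omitted WT453 was the highest library for Col5a2, at 217 normalized counts, and lay within the knockout range for Col5a1, at 756. The count of 6 of 31 is near the 19.2% of all genes, so no result about collagen V is read from it.

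**Figure D3:**
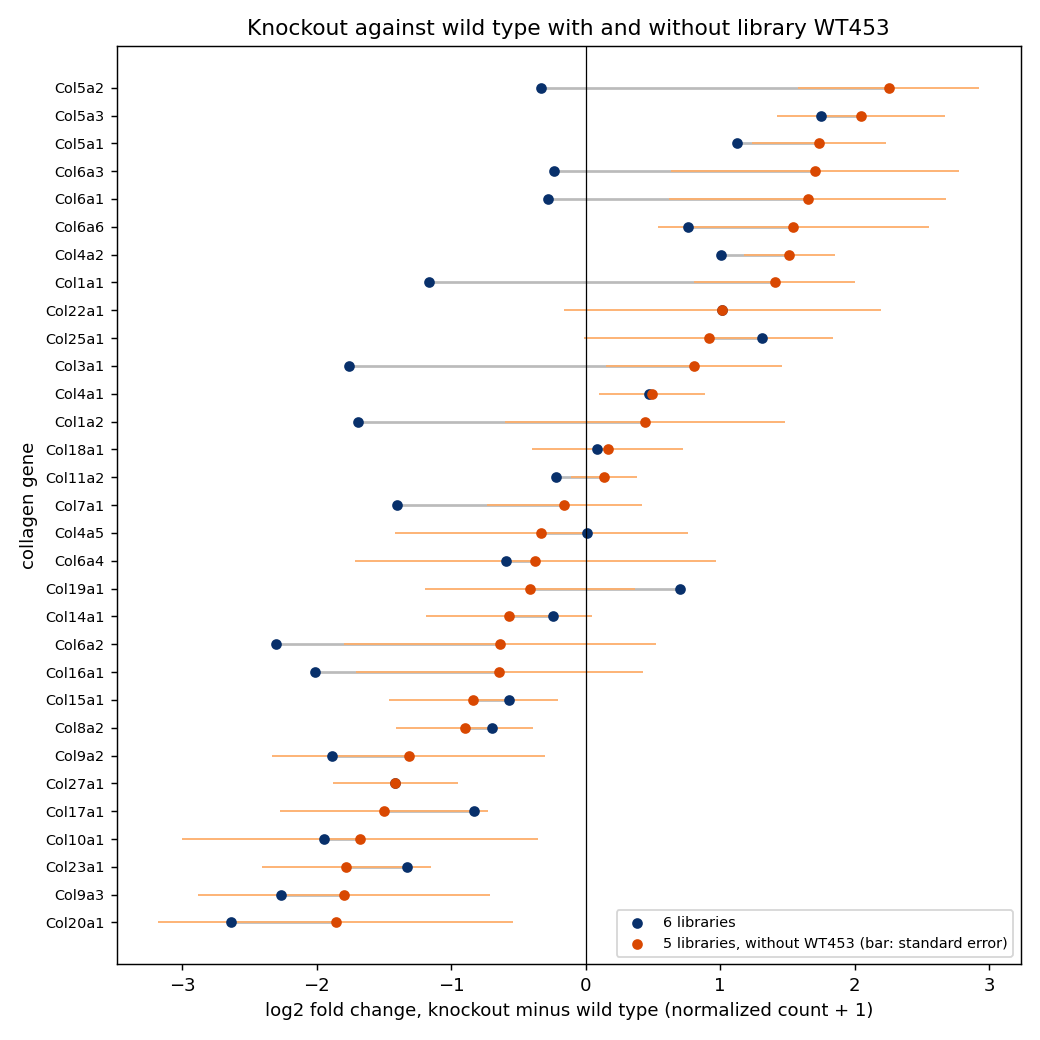
Log2 fold change, knockout minus wild type, on the scale of the normalized count + 1, for 31 collagen genes tested both with all 6 libraries (blue) and without WT453 (orange, bar: standard error). Col1a1, Col3a1, Col1a2 and Col5a2 cross 0 when WT453 is left out, while Col5a3 stays above 0 and Col27a1 below.

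Collagen IV of the basement membrane was represented by Col4a1 and Col4a2, whose genes lie head to head on chromosome 8 and share 22 exon bases at their starts in GRCm38. Col4a2 (11312805 to 11449287) had 80.4 normalized counts in KO451, 107 in KO452 and 84.1 in KO457, against 89.7 in WT453, 35.1 in WT454 and 27.0 in WT455. WT453 lay within the knockout range and the other wild-type libraries below it. Its log2 fold change was 1.01 ± 0.52 (SE, limma, adjusted p = 0.514), and 1.51 ± 0.34 (adjusted p = 0.190) without WT453.

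Col4a1 (11198423 to 11312826) had 58.7 in WT453, 57.9 in WT454, 55.1 in WT455, 52.5 in KO451, 106 in KO452 and 91.4 in KO457. Its wild-type values were nearly equal and KO451 lay below them, with a log2 fold change of 0.47 ± 0.40 (SE, limma, adjusted p = 0.695). The paired chains did not keep a fixed ratio. Col4a1 to Col4a2 per kilobase was 1.61 in WT454 (95% exact interval 1.09 to 2.41) and 1.99 in WT455 (1.22 to 3.31). It was 0.639 in WT453 (0.449 to 0.902), 0.637 in KO451 (0.435 to 0.925), 0.966 in KO452 (0.731 to 1.28) and 1.06 in KO457 (0.774 to 1.45). The other chains of collagen IV, Col4a3, Col4a4 and Col4a5, had at most 5.15 normalized counts in any library.

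Col18a1 and Col15a1 encode the multiplexins, basement membrane collagens that carry sugar chains. Col18a1 (chromosome 10, 77052178 to 77166548) had 108 normalized counts in KO451 and between 37.4 and 56.7 in the other 5 libraries. Its log2 fold change was 0.08 ± 0.52 (SE, limma, adjusted p = 0.973), and -0.42 without KO451. Col15a1 had 8.58 in KO451, the lowest value, and 18.6 to 39.5 in the others. In KO451 the multiplexins thus lay at opposite ends of their ranges.

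Members with few reads made up the rest. In 14 of the 40 the mean was below 10 normalized counts in both groups, and 16 had reads in all 6 libraries. Col20a1, a FACIT-like collagen (chromosome 2, 180986535 to 181018363), had 110.3 in WT453, 17.9 in WT454, 24.9 in WT455, 0 in KO451, 9 in KO452 and 21.8 in KO457. Its log2 fold change was -2.64 ± 1.25 (SE, limma, adjusted p = 0.496), and between -3.59 and -1.33 when each library was left out. Col9a3, a chain of the cartilage collagen IX, had 0 to 10 in knockout and 8.31 to 32.0 in wild-type spleens, and 234 of its exon bases are shared with Tcfl5 on the other strand. Col17a1, a collagen of epithelial attachment, had 4 to 22.5 in knockout and 8.25 to 44.1 in wild-type spleens. In 8 members all 3 knockout libraries had no reads, and in 1, Col22a1, all 3 wild-type libraries had none. Of the 8, Col8a1, Col11a1 and Col12a1 had reads in WT453 only. Col9a2, Col6a5, Col4a4, Col2a1 and Col28a1 had at most 7 reads in any library. No share over all genes was computed for these counts, and no loss in knockout is read from them.

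The genes that modify, trim, join, bind and degrade collagen were described from 6 lists of 73 genes, of which 70 were tested. With limma 0 passed an adjusted p of 0.05. At an unadjusted p under 0.05, 2 were higher in knockout, where 5.50% of all genes were, and 3 were lower, where 5.46% were. Without WT453, 63 were tested and 0 passed the adjusted threshold. Of these 6 were higher at an unadjusted p under 0.05, where 9.70% of all genes were, and 4 were lower, where 9.53% were. In the list for modification and folding, Plod1, a lysyl hydroxylase, had 1186 to 1592 normalized counts in knockout and 696 to 1011 in wild-type spleens, a log2 fold change of 0.70 ± 0.23 (SE, limma, adjusted p = 0.373), and 0.56 without WT453. Colgalt2, which adds sugar to collagen, had 0 to 3 in knockout and 3.12 to 13.4 in wild-type spleens, and without WT453 its unadjusted p was 0.108. The median of the 19 tested members was -0.16, and -0.06 without WT453.

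Among 11 tested genes for trimming and crosslinking none had an unadjusted p under 0.05, and their median was 0.09. Lox, the crosslinking lysyl oxidase, had 399 normalized counts in KO451, 18.0 in KO452, 17.7 in KO457, 68.0 in WT453 and 0 in WT454 and WT455. The highest means of the list belonged to other genes. Pcolce2, which enhances procollagen trimming, had 381 to 911 in knockout, 111 in WT453, 459 in WT454 and 517 in WT455. Adamts14, a procollagen N-proteinase, had 83.1 to 208 in knockout and 131 to 377 in wild-type spleens. Without WT453 the median of 10 genes was 0.43, and Lox and Bmp1, the latter a protease that trims procollagen, had an unadjusted limma p under 0.05. Their log2 fold changes there were 5.70 ± 1.41 (SE, adjusted p = 0.190) and 1.495 ± 0.51 (SE, adjusted p = 0.213). The value for Lox is no bound, since both remaining wild-type libraries had no reads.

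Of 10 genes for degradation and uptake, with a median of 0.24, Mmp14, a membrane collagenase, had 1763 in KO451, 528 in KO452, 674 in KO457, 501 in WT453, 232 in WT454 and 315 in WT455. All knockout values lay above all wild-type values, with a log2 fold change of 1.36 ± 0.50 (SE, limma, adjusted p = 0.406), and 1.66 without WT453. The authors' deposited table lists Mmp14 at an FDR of 0.0457. Ctsk, a collagen-cutting cathepsin, had 0 to 3.12 in knockout and 4.89 to 26.8 in wild-type spleens, also without overlap, and without WT453 its unadjusted p was 0.0769. Without WT453 the median of the list was 1.01. Of the 10 genes, Mmp8, Timp3 and Mmp14 then had an unadjusted p under 0.05, all higher in knockout, where 9.70% of all genes were. With all libraries WT453 was the highest for Mmp8, at 15809 against 3040 to 12556 in knockout. It was also the highest for Timp3, at 48.4 against 24.7 to 46. Their log2 fold changes with all libraries were 0.57 ± 0.87 and 0.74 ± 0.64 (SE, limma, adjusted p = 0.845 and 0.705).

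The 9 collagen receptors had a median of -0.15 with and without WT453, and none had an unadjusted p under 0.05 with all libraries. Without WT453, Itga2, the alpha 2 chain of a collagen-binding integrin, had a log2 fold change of -1.25 ± 0.32 (SE, limma, adjusted p = 0.190), against -0.65 with it. Itgb1, the shared beta chain of the collagen-binding integrins, had 5794 in WT453 and 8978 to 12549 in the other libraries. Lair1, an inhibitory collagen receptor of leukocytes, had 799 in WT453 and 1106 to 1893 elsewhere. Ddr2, a collagen receptor of connective tissue cells, had 82.5 normalized counts in WT453 and 0 in all others. Itgb1 and Lair1 were thus lowest, and Ddr2 highest, in WT453.

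Partners of collagen in the interstitial matrix resembled the fibrillar chains in where they were highest. Of 11 tested, 8 were highest in WT453, where 31.7% of all genes were, and 5 were there at least 4-fold above the next library, where 3.04% were. The same counts were 7 and 3 of 10 for degradation and uptake, and 5 and 3 of 11 for trimming and crosslinking. They were 4 and 2 of 10 for basement membrane partners and 2 and 2 of 9 for receptors. For modification and folding they were 8 and 1 of 19. Thbs2, a matrix thrombospondin, had 1380.1 normalized counts in WT453 and at most 5 elsewhere. Sparc, a collagen-binding matrix protein, had 810.1 and 59.2 to 100. Lum, a proteoglycan on fibrils, had 76.3 and 0 in all others. Fn1, fibronectin, was highest in WT455, Tnxb also in WT455 and Eln in KO452. Fn1 stood at 3105 to 4166 in knockout and 4501 to 6755 in wild-type spleens, with a log2 fold change of -0.65 ± 0.23 (SE, limma, adjusted p = 0.397), -0.58 without WT453, and no overlap. The median of the list was -0.70, and 0.36 without WT453.

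Of 10 tested basement membrane partners 4 were highest in WT453, near the 31.7% of all genes. In WT453 2 of the 10 were at least 4-fold above the next library, where 3.04% of all genes were. The summed level of the list was lowest in WT453, at 26.6 CPM against 26.7 to 53.8 CPM. Nid1, which links laminin to collagen IV, had 157 in WT453 and 193 to 469 in the other libraries. Lamc1, the gamma 1 chain of laminin, had 174 in WT453, 316 to 332 in knockout spleens, 515 in WT455 and 714 in WT454. For both genes WT453 was the lowest library. Lamc1 had a log2 fold change of -0.32 with all libraries and -0.91 ± 0.21 without WT453 (SE, limma, adjusted p = 0.190). Lama4, another laminin chain, had 22.7 in WT453 and 0 elsewhere. The median of this list was -0.39, and -0.43 without WT453.

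**Figure D4:**
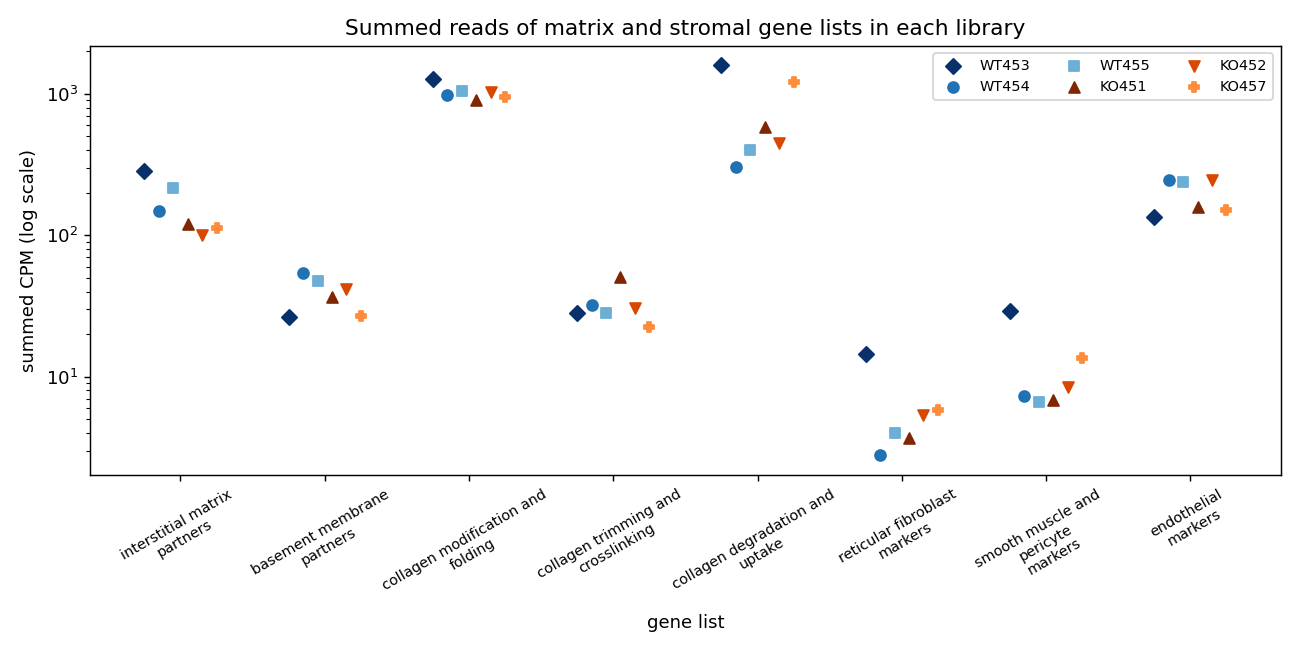
Summed CPM, on a log axis, of 5 matrix and collagen-processing lists and 3 stromal marker lists in each of the 6 libraries, blue for wild type and brown to orange for knockout. WT453 (diamonds) is the highest library for interstitial matrix partners (283 CPM), modification and folding (1275 CPM) and degradation and uptake (1589 CPM). It is also the highest for reticular fibroblast markers (14.5 CPM) and smooth muscle and pericyte markers (29.2 CPM, of which Mcam is 22.6). It is the lowest for endothelial markers (134 CPM) and, by a small margin, basement membrane partners (26.6 CPM against 26.7 CPM and above).

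Markers of other cells that the tissue could hold were read beside the collagens. Among the reticular fibroblast markers, 5 of 12 were highest in WT453, where 31.7% of all genes were. Cxcl12 had 259.7 normalized counts there and 15.5 to 79.0 elsewhere, and Pdgfrb 119 and 26.1 to 48.0. Cxcl13, Ccl19, Tcf21, Des and Tlx1 had no reads in WT453. Tcf21, a transcription factor of the splenic mesenchyme, had 13.9 to 15.6 in knockout and 0 to 8.16 in wild-type spleens, with a log2 fold change of 2.21 ± 0.87 (SE, limma, adjusted p = 0.431), and 1.33 ± 0.58 (adjusted p = 0.277) without WT453. Smooth muscle and pericyte markers summed to 29.2 CPM in WT453 and 6.65 to 13.6 CPM elsewhere, in which Mcam had 750.3 normalized counts against 115 to 338.

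Endothelial markers summed to 134 CPM in WT453 and 151 to 247 CPM elsewhere. Most of the sum in WT453 was Pecam1, at 106 CPM, and Stab2, at 18.4 CPM. The genes of the list did not move together. Stab2, Cdh5, Kdr and Tek were lowest in WT453. Pecam1 was not, at 3507 normalized counts against 2885 in KO457. Tie1 was highest there, at 82.5 against 13.5 to 49, and Emcn had reads only there. Egfl7 had 158 in WT453 and 25.3 to 159 elsewhere. Mesothelial markers, of which 3 of 6 were in the table, summed to at most 0.600 CPM in any library. Skeletal markers summed to 1.24 CPM in WT453 and 0.360 to 1.28 CPM elsewhere. Adipocyte markers summed to 6.94 to 13.8 CPM in knockout and 3.33 to 4.90 CPM in wild-type spleens, most of it Fabp4 (limma, unadjusted p = 0.00276, adjusted p = 0.344). Exocrine pancreas markers summed to 32.2 to 44.1 CPM in knockout and 14.02 to 24.2 CPM in wild-type spleens, nearly all of it Cela1 (limma, unadjusted p = 0.00349, adjusted p = 0.344). Adipoq had 15 normalized counts in KO452, 17.1 in WT454 and 0 elsewhere, while Cidec and Cfd had reads in 1 wild-type library each. Prss2 and Cpa1 had at most 6 in any library. Each sum thus rests on 1 gene, Fabp4 or Cela1, and is not read as a measure of those cells. Neither sum overlapped between groups, where 9.54% of all genes were higher in knockout without overlap. T cell markers summed to 355 CPM in WT453 and 257 to 815 CPM elsewhere. What part these lists have in the collagen levels was not tested.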

How the data were processed

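RNA sequencing of 3 knockout and 3 wild-type spleen libraries was used. Per the submitters' processing notes, the build was GRCm38 and the tools included STAR 2.5.3a, DESeq, FastQC 0.11.5 and StringTie 1.3.1c, whose roles are not stated. For the counting step, its annotation, filters and strand setting, nothing is given in those sources. The values deposited by the authors are on a log2 scale, with reads first scaled by a library factor and 1 added. Undoing this gave whole reads for 100% of values, within 0.001. The table also holds the authors' log2 fold change, p-value and FDR, whose test is not stated. Knockout columns carry a suffix of unstated meaning.

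Limma 3.58.1 in R 4.3.3, with an intensity trend and no covariate, was fitted to the deposited log2 values of 22071 genes with a mean normalized count of at least 1. Adjustment was by Benjamini-Hochberg over these genes, with a threshold of 0.05. A fold change on the log2(normalized count + 1) scale understates the change of low genes, and where a group is at 0 it is no bound. Positions and transcript lengths came from GENCODE M21 (GRCm38), which held 26404 of the 26452 gene identifiers. Wilson and exact intervals were computed at 95%.

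Every value was given for the 14 members with the highest mean per kilobase and for any with an unadjusted limma p or a deposited FDR under 0.05, 15 in all. Other members were given by range. List genes with an unadjusted p under 0.05 were named. The other list genes named, and the set of genes high in WT453, were chosen after their values were seen. The members and lists were chosen with earlier results of these data known. Alternatives were a filter at 1 CPM, none at all, a pseudocount of 0.1 or 0.01, quantile normalization, other size factors, voom, a threshold of 0.01 and each library left out.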

Additional observations from a re-analysis of the deposited data

How the results depend on the processing

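In all 14 alternatives 0 collagen genes passed limma's adjusted threshold, and 0 genes of the 6 collagen pathway lists. Between 2 and 6 collagen genes had an unadjusted p under 0.05, where 6.7% to 19.2% of all genes did, depending on the setting. There were 6 of 31 without WT453, where 19.2% of all genes were, and 5 of 37 without WT454, where 8.22% were. At a threshold of 0.01 there were 0, and no share over all genes was computed for it. The filter at 1 CPM left 14 collagen genes to test. The median log2 fold change of the collagen genes lay between -1.25 and -0.16 when each library was left out and between -0.90 and -0.29 in the other settings. The ratio of summed collagen reads, knockout over wild type, lay between 0.442 and 1.04 when each library was left out, with 1.04 without WT453.

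Of 192 log2 fold changes of the 15 genes given in full, 181 kept their direction and their side of the threshold and 11 changed direction. When each library was left out, Col1a1 lay between -2.63 and 1.41, Col3a1 between -3.31 and 0.81, Col1a2 between -2.91 and 0.44, Col5a2 between -1.63 and 2.25, Col11a2 between -0.49 and 0.13, Col14a1 between -0.58 and 0.43, and Col18a1 between -0.42 and 0.34. Col5a2 was also 1.58 and 3.76 with pseudocounts of 0.1 and 0.01 and 0.33 in voom, against -0.34. The cause of these changes was not tested. No paired analysis was possible because the groups share no numbers in their library titles. With 3 reads as the limit that a count of 0 allows, differences between groups cannot be shown for members with a few reads per library.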
